A study of Homo sapiens with 6 samples.

Results

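Glucose uptake and glycolysis genes and hypoxia response genes were read out of RNA sequencing of A549 cells, an established line of human lung adenocarcinoma, in which the m6A methyltransferase METTL3 had been silenced. The 46 genes were chosen by symbol from the textbook pathways, 27 for glucose uptake and glycolysis and 19 for the hypoxia response, out of 57781 rows of the gene count table. All 46 were in the table and all 46 passed the filter on low counts that left 15125 rows for testing. The groups were vector (3 libraries of cells with the empty vector, genotype given as WT) and shMETTL3 (3 libraries of cells with a hairpin RNA against METTL3, genotype given as METTL3 knockdown), and both were cultured in DMEM with fetal bovine serum, with no treatment and no low-oxygen exposure named. The hairpin was carried by a plasmid, and how many hairpins or clones stood behind the libraries was not given in the sources used here. The study's methods say in general that experiments were repeated independently, but neither they nor the labels say of these libraries whether the 3 of a group came from separate cultures, so the p-values measure the spread between these libraries, which may be technical.

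Glycolysis takes glucose in through GLUT carriers, traps it with a hexokinase, splits it into triose phosphates and turns these into pyruvate, which lactate dehydrogenase converts to lactate and monocarboxylate carriers export. In the hypoxia response, the HIF-alpha subunits HIF1A and EPAS1 are hydroxylated by the EGLN oxygen sensors while oxygen is present, and the VHL ubiquitin ligase then marks them for degradation. When oxygen falls, the subunits persist, pair with ARNT and switch on target genes, among them many of the glycolytic genes, so the same HIF-alpha proteins act on both groups. This control acts mainly on the HIF-alpha proteins, which RNA sequencing does not measure.

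Library totals ran from 14931426 to 19108928 counts, so that 3 counts in a library, taken as the floor, corresponded to 0.149 to 0.189 CPM (counts per 1e6, scaled by the TMM method, which corrects for differences in RNA composition). Fold changes are given on the log2 scale as shMETTL3 minus vector with their standard errors (SE), and genes below 0.05 were called changed, on p-values from the quasi-likelihood test of edgeR adjusted by Benjamini-Hochberg over all tested genes. METTL3 stood at 49.4, 50.6 and 49.5 CPM in vector and at 18.8, 19.9 and 19.3 CPM in shMETTL3, a log2 fold change of -1.36 (SE 0.0673, adjusted p = 4.57e-16). The groups did not overlap, and every library matched its label. Most genes of these cells differed between the groups: 66.6% of the 15125 tested genes were changed, 33.7% higher and 32.9% lower, and in 69.4% the groups did not overlap. The counts below are read against those shares. The epithelial keratins and junction genes KRT8, KRT18, KRT19, EPCAM and CDH1 all fell, their summed level going from 8970 to 9580 CPM in vector to 3920 to 4320 CPM in shMETTL3. Of the alveolar type 2 markers, SFTPA1 and SFTPA2 had at most 3 counts in every library, and the summed level of the 7 listed was 79.2 to 96.7 CPM in vector and 72.3 to 74.3 CPM in shMETTL3, nearly all of it from ABCA3. ABCA3 fell (-0.26), whereas SFTPB went from 3, 1 and 1 counts in vector to 13, 24 and 11 in shMETTL3. SFTPB was thus near the floor in vector and passed the filter only through shMETTL3. SFTPC, LAMP3 and NKX2-1 were too low to be tested. Summed leukocyte markers went from 0.777 to 1.41 CPM to 7.07 to 7.99 CPM, led by CD14, with PTPRC and CD3E at 3 counts or fewer in every library. Summed endothelial markers went from 0 to 0.122 CPM to 1.39 to 1.95 CPM, from CDH5, with VWF and KDR at 3 counts or fewer in every library. Summed fibroblast markers went from 4.12 to 7.22 CPM to 10.9 to 11.9 CPM, nearly all of it COL1A1, with COL1A2 at 3 counts or fewer. The part of these shifts in the results below was not tested. In bulk RNA, fewer cells of a type and less RNA per cell cannot be told apart.

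The HIF proteins bind the letters ACGTG or GCGTG, and 300-base promoters (250 bases before and 50 after the RefSeq start, GRCh38.p14) were searched for both on either strand. This search was chosen after earlier results of these data were known. Promoters were found for 39 of the 46 genes, and SLC2A3, PFKFB2, SLC16A1, VHL, VEGFA, NDRG1 and BNIP3L had none in the table used. Either motif was present in 48.4% of all 35116 promoters, in 15 of 24 glycolysis genes (62.5%) and in 13 of 15 hypoxia genes (86.7%). Among members that rose in shMETTL3, 9 of 14 held a motif (64.3%), among those that fell 12 of 15 (80.0%), and among those that did not pass 7 of 10 (70.0%). ACGTG is also part of the E-box CACGTG, which other factors such as MYC and BHLHE40 bind, so the letters do not name a factor. To show that the same letters stand before genes that went either way, 8 windows of 21 bases follow, each 5′ to 3′ on the strand of its gene with the motif, or its reverse complement CACGT or CACGC, in capitals. The first 5 genes rose and the last 3 fell. Positions are those of GRCh37 (hg19), where each promoter matched exactly and once.
PFKFB3, chr10:6186708-6186728, plus strand: gcccggccCACGCcccggctt
PGK1, chrX:77359535-77359555, plus strand: cgtgccggACGTGacaaacgg
ADM, chr11:10326511-10326531, plus strand: aggagcgcGCGTGgctgagga
ANGPTL4, chr19:8428797-8428817, plus strand: agaagagtCACGTctcccacg
CA9, chr9:35673899-35673919, plus strand: ttccaatgCACGTacagcccg
LDHA, chr11:18416016-18416036, plus strand: cgactcacACGTGggttcccg
EGLN1, chr1:231558034-231558054, minus strand: cgtggtgtACGTGcagagcgc
EGLN2, chr19:41305040-41305060, plus strand: gcgcggtcACGTGcccaccgg

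Of the 46 genes, 36 (78.3%) were changed, 19 higher and 17 lower, and in 37 the groups did not overlap, beside 66.6% changed and 69.4% without overlap among all tested genes. The 2 groups of genes leaned in opposite directions. Of the 27 glucose uptake and glycolysis genes, 7 rose, 14 fell and 6 did not pass, with a median log2 fold change of -0.22. Of the 19 hypoxia genes, 12 rose, 3 fell and 4 did not pass, with a median of 0.35. The median over all tested genes was 0.00218. With library size alone in place of TMM, the median of all tested genes moved up by 0.17, the glycolysis genes divided into 9 higher and 11 lower and the hypoxia genes into 14 higher and 2 lower. The share of higher calls among changed glycolysis genes then went from 33.3% to 45.0%, that of the hypoxia genes from 80.0% to 87.5% and that of all tested genes from 50.6% to 65.8%. No test of the difference between the 2 groups of genes was made.

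**Figure D1:**
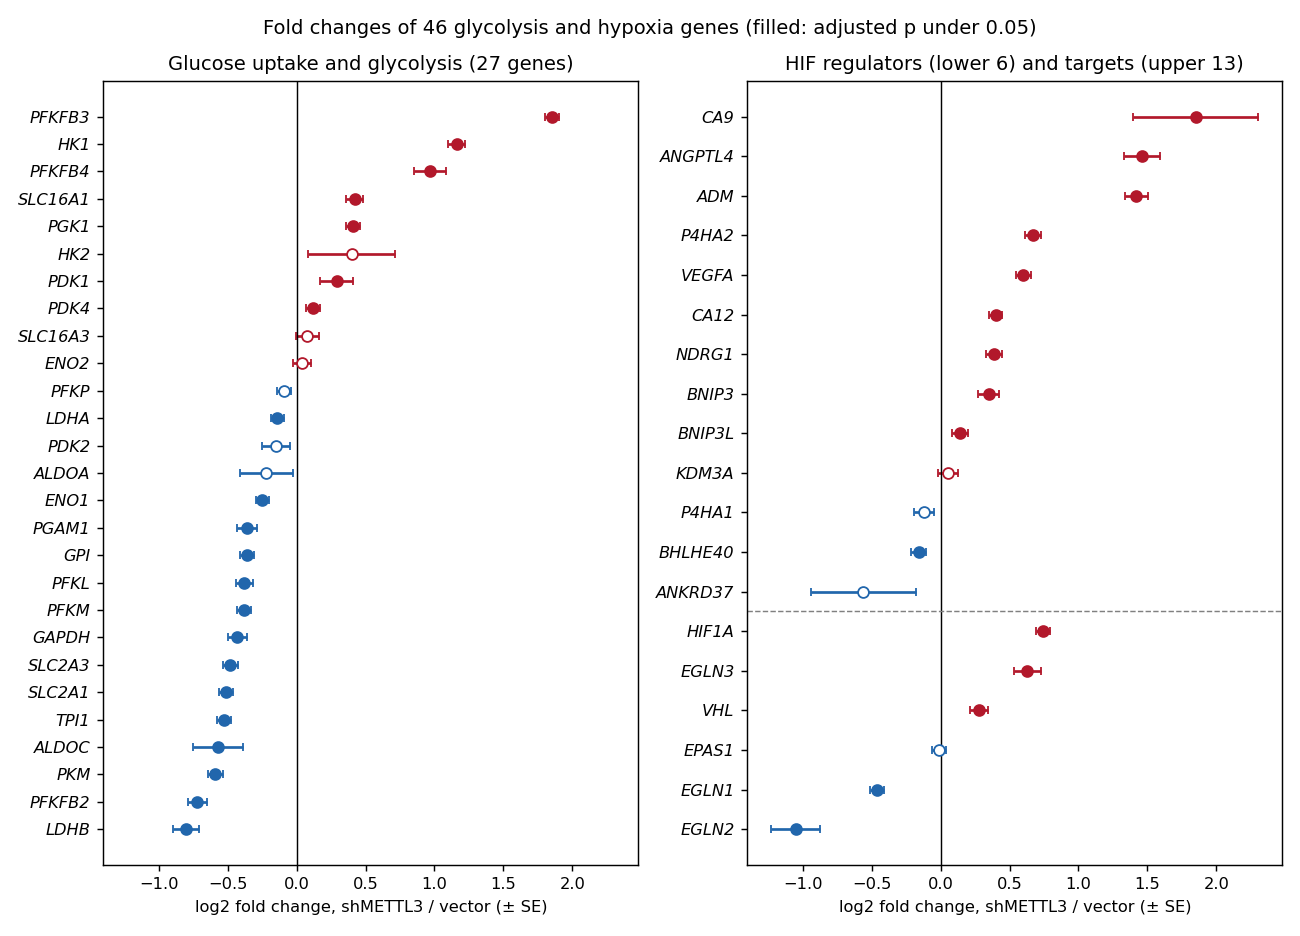
Log2 fold change of shMETTL3 over vector (horizontal axis, points with SE bars) for the 27 glucose uptake and glycolysis genes (left) and the 19 hypoxia genes (right, 13 targets above the dashed line and 6 regulators below), with filled points for an adjusted p under 0.05, red above 0 and blue below. PFKFB3 and CA9 stand at 1.85, and the left panel has 17 of 27 genes below 0 whereas the right panel has 6 of 19.

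Both listed glucose carriers fell. SLC2A1 (chromosome 1, 43391024 to 43424564, minus strand), which encodes the basal carrier GLUT1, stood at 189.7, 201 and 210.3 CPM in vector and at 139.9, 140.8 and 141.1 CPM in shMETTL3. Every shMETTL3 library lay below every vector library, and the log2 fold change was -0.51 (SE 0.0515, adjusted p = 1.47e-09). SLC2A3, which encodes the high-affinity carrier GLUT3, stood at 87.8, 86.2 and 84.3 CPM in vector and at 63.7, 59.5 and 62.1 CPM in shMETTL3. Its groups did not overlap either, and its log2 fold change was -0.48 (SE 0.0545, adjusted p = 1.36e-08). The ratio of SLC2A3 to SLC2A1 counts within a library was 0.43 in vector and 0.439 in shMETTL3, with a log2 difference of 0.0302 and overlapping groups (two-sided exact permutation test over the 6 libraries, p = 0.7, adjusted over 18 ratios 0.741).

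The hexokinases, which commit glucose to the cell by phosphorylating it, did not move with the carriers. HK1 (chromosome 10, 71029740 to 71161640, plus strand) stood at 38.4, 39.5 and 42.9 CPM in vector and at 92.1, 88.6 and 89.7 CPM in shMETTL3. Each shMETTL3 library was above all vector libraries, with a log2 fold change of 1.16 (SE 0.0586, adjusted p = 7.44e-16), or 2.24-fold. HK2, the hexokinase often raised in tumours, was close to the limit of these libraries, at 0.723, 1.20 and 1.29 CPM in vector and at 1.09, 1.94 and 1.13 CPM in shMETTL3. Its groups overlapped, and its log2 fold change of 0.40 (SE 0.317) did not pass (adjusted p = 0.265).

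The step of phosphofructokinase showed the widest divergence among the glycolytic genes. Of the subunits of the enzyme itself, PFKL and PFKM fell by the same amount (log2 fold change -0.38 for each), and PFKP, the most abundant per kilobase of exon at 47.8 CPM per kb in vector, stood at -0.0919 and did not pass (adjusted p = 0.115). The PFKFB enzymes make and remove fructose 2,6-bisphosphate, the activator of phosphofructokinase, and their genes went in opposite directions. PFKFB3 (chromosome 10, 6186897 to 6296607, plus strand), whose product mainly makes the activator, stood at 105.4, 110.7 and 110.1 CPM in vector and at 386, 382 and 405 CPM in shMETTL3. The groups were far apart, with a log2 fold change of 1.85 (SE 0.0515, adjusted p = 1.51e-21), or 3.60-fold. PFKFB4 stood at 5.68, 5.56 and 5.69 CPM in vector and at 11.4, 11.0 and 10.9 CPM in shMETTL3, again without overlap, and rose by 0.97 (SE 0.116, adjusted p = 3.36e-08). PFKFB2, an isoform prominent in heart, stood at 42.1, 38.0 and 38.2 CPM in vector and at 24.4, 24.4 and 22.9 CPM in shMETTL3. All shMETTL3 libraries were lower, with a log2 fold change of -0.72 (SE 0.0704, adjusted p = 7.95e-10). Per kilobase of exon, PFKFB3 was 17.8 CPM per kb and PFKFB2 3.87 CPM per kb in vector, against 64.0 and 2.35 CPM per kb in shMETTL3.

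From glucose 6-phosphate to pyruvate the genes mostly fell, and PGK1 rose. GPI (-0.36), which isomerises glucose 6-phosphate, ALDOC (-0.57), 1 of the aldolases, TPI1 (-0.53), which interconverts the triose phosphates, GAPDH (-0.43), PGAM1 (-0.36), ENO1 (-0.25) and PKM (-0.59) were lower in shMETTL3, whereas ALDOA (-0.22, adjusted p = 0.329) and ENO2 (0.0399, adjusted p = 0.589) did not pass. PKM (chromosome 15, 72491370 to 72524160, minus strand), which encodes the pyruvate kinase of most tissues, had the highest CPM of the 46 genes, at 4843, 4996 and 5501 CPM in vector and 3226, 3492 and 3446 CPM in shMETTL3. No shMETTL3 library reached the vector range, and the level was 66.3% of vector (SE of the log2 fold change 0.0538, adjusted p = 1.79e-10). TPI1 stood at 739.5, 714 and 777 CPM in vector and at 521, 525 and 494 CPM in shMETTL3, also without overlap (SE 0.0504, adjusted p = 4.06e-10). ALDOC was low, at 4.84, 4.60 and 4.96 CPM in vector and 2.22, 3.74 and 3.77 CPM in shMETTL3, where replicate 1 was the lowest (SE 0.182, adjusted p = 0.00709). PGK1 (chromosome X, 77166236 to 77384792, plus strand), the phosphoglycerate kinase that makes ATP in the middle of the pathway, stood at 553, 576 and 566 CPM in vector and at 774, 729 and 752 CPM in shMETTL3. It was higher in every shMETTL3 library, by 0.41 (SE 0.0487, adjusted p = 2.87e-08). Of the 439 tested genes on chromosome X, 385 were changed, 362 of them higher, with a median log2 fold change of 0.74, against -0.00366 for the numbered chromosomes. That comparison was added after the values were seen, and its part in the level of PGK1 was not tested.

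**Figure D2:**
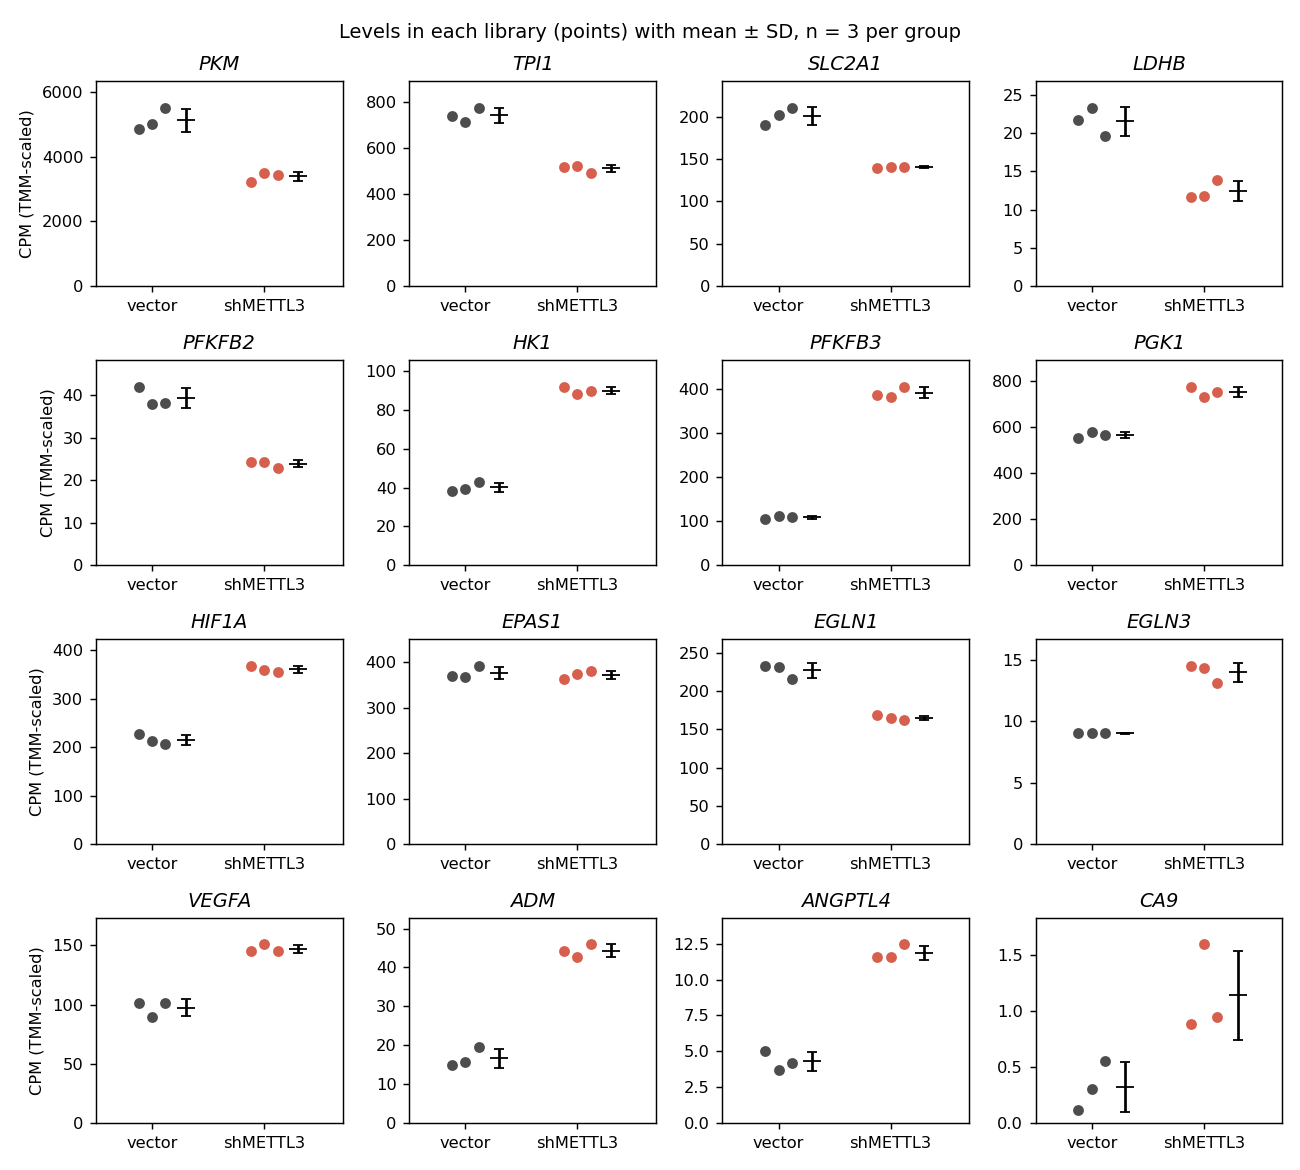
TMM-scaled CPM (vertical axes, each starting at 0) of 16 genes in each of the 3 vector (grey) and 3 shMETTL3 (red) libraries, with mean and SD beside the points. The libraries overlap only for EPAS1, and CA9 lies below 2 CPM in every library.

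At the end of the pathway, the lactate dehydrogenases both fell but by different amounts. LDHA, whose enzyme favours making lactate, stood at 2771, 2692 and 2737 CPM in vector and 2456, 2436 and 2574 CPM in shMETTL3. Its groups did not overlap, with a log2 fold change of -0.14 (SE 0.0483, adjusted p = 0.0158), and with library size alone it stood at 0.0389. LDHB, whose enzyme favours making pyruvate, stood at 21.8, 23.3 and 19.6 CPM in vector and at 11.7, 11.8 and 13.9 CPM in shMETTL3. This was the largest fall among the 27 genes, at -0.80 (SE 0.0933, adjusted p = 2.25e-08), or 57.5% of vector. Another annotated gene on the same strand covers 33.4% of the exon bases of LDHB, and its pseudogene rows held reads equal to 8.24% of its own, so its level is uncertain. Of the monocarboxylate carriers that export lactate, SLC16A1 stood at 59.1, 61.8 and 53.6 CPM in vector and 78.8, 76.8 and 77.6 CPM in shMETTL3. It rose by 0.42 without overlap (SE 0.0586, adjusted p = 5.27e-07), whereas SLC16A3 stood at 0.0778 and did not pass (adjusted p = 0.413). PDK1, PDK2 and PDK4 encode pyruvate dehydrogenase kinases, which close the entry of pyruvate into the mitochondrial cycle. PDK1 stood at 8.85, 8.85 and 7.22 CPM in vector and 11.2, 9.71 and 9.50 CPM in shMETTL3, a rise of 0.29 (SE 0.118, adjusted p = 0.0347) with a narrow gap between the groups. PDK4 rose by 0.12 (adjusted p = 0.0408) and PDK2 stood at -0.15 (adjusted p = 0.199).

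The sum over these genes followed the abundant enzymes. The 27 glycolysis genes took 1.43%, 1.49% and 1.48% of all counts in vector and 1.35%, 1.37% and 1.40% in shMETTL3. The 15 enzyme genes from GPI to the lactate dehydrogenases, set apart after the values were seen, took 1.34% ± 0.0334 (SD, n = 3) in vector and 1.19% ± 0.0249 (SD, n = 3) in shMETTL3. PKM alone went from 0.481% to 0.360%. These shares use the raw totals and no scaling factor. The 19 hypoxia genes took 0.241%, 0.232% and 0.235% in vector and 0.321%, 0.316% and 0.318% in shMETTL3, without overlap and in the opposite direction.

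Among the HIF regulators, the subunit genes parted. HIF1A (chromosome 14, 62162231 to 62214977, plus strand) stood at 226.7, 213 and 206.5 CPM in vector and at 368.6, 359 and 355 CPM in shMETTL3. All shMETTL3 libraries were higher, with a log2 fold change of 0.74 (SE 0.0505, adjusted p = 4.88e-13), or 1.67-fold. EPAS1, which encodes HIF-2-alpha, stood at 369, 367 and 393 CPM in vector and at 364, 374 and 381 CPM in shMETTL3. Its groups overlapped and its log2 fold change was -0.013 (SE 0.0494, adjusted p = 0.828), though with library size alone it was 0.162 and past the threshold (adjusted p = 0.00445). Per kilobase of exon, EPAS1 was the higher of the pair in vector (51.6 against 41.8 CPM per kb) and HIF1A in shMETTL3 (70.1 against 51.1 CPM per kb). The EPAS1 to HIF1A count ratio within a library went from 1.75 to 1.03 without overlap, a log2 difference of -0.76 (p = 0.1 by exact permutation, two-sided, which is the lowest value 3 against 3 libraries can give, adjusted 0.138).

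The oxygen sensors also went in different directions. EGLN1, which encodes PHD2, the main sensor of HIF1A in most cells, stood at 233, 232 and 216 CPM in vector and at 168, 165 and 163 CPM in shMETTL3. The groups did not overlap and the log2 fold change was -0.46 (SE 0.0504, adjusted p = 7.35e-09). EGLN2, which encodes PHD1, was low, at 5.68, 4.24 and 5.999 CPM in vector and 2.43, 2.84 and 2.39 CPM in shMETTL3. It had the largest fall of the 46 genes, at -1.05 (SE 0.177, adjusted p = 9.01e-06), or 48.4% of vector. Other annotated genes on the same strand cover 55.8% of the exon bases of EGLN1 and 30.6% of those of EGLN2, and how reads in shared bases were assigned was not given. EGLN3, which encodes PHD3 and is itself a HIF target, stood at 9.07, 9.03 and 8.998 CPM in vector and at 14.5, 14.3 and 13.1 CPM in shMETTL3. It rose by 0.63 without overlap (SE 0.101, adjusted p = 3.70e-06), and the EGLN3 to EGLN1 count ratio went from 0.0399 to 0.0846 (log2 difference 1.08, exact permutation p = 0.1, adjusted 0.138). VHL stood at 54.4, 49.9 and 48.1 CPM in vector and at 64.1, 64.0 and 56.99 CPM in shMETTL3, each library above the vector range, and rose by 0.28 (SE 0.0635, adjusted p = 0.000338).

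Of the 13 HIF targets, 9 rose, 1 fell and 3 did not pass, with a median log2 fold change of 0.39. Of the targets that encode secreted factors, ADM, ANGPTL4 and VEGFA rose. ADM (chromosome 11, 10326620 to 10328944, plus strand), which encodes the vasodilator adrenomedullin, stood at 14.8, 15.5 and 19.4 CPM in vector and at 44.3, 42.8 and 45.9 CPM in shMETTL3. The lowest shMETTL3 library was far above the highest vector library, and the log2 fold change was 1.42 (SE 0.0825, adjusted p = 1.69e-14). ANGPTL4 (chromosome 19, 8428173 to 8439254, plus strand), an inhibitor of lipoprotein lipase, stood at 5.01, 3.71 and 4.16 CPM in vector and at 11.6, 11.6 and 12.5 CPM in shMETTL3. It rose by 1.46 without overlap (SE 0.129, adjusted p = 1.18e-10). VEGFA, the principal angiogenic growth factor, stood at 101, 89.2 and 102 CPM in vector and at 146, 151 and 145 CPM in shMETTL3, and rose by 0.60 without overlap (SE 0.0556, adjusted p = 3.16e-10).

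The carbonic anhydrases CA9 and CA12, which regulate pH at the cell surface, differed widely in level. CA9 (chromosome 9, 35673925 to 35681156, plus strand) had 2, 5 and 9 counts in vector and 17, 32 and 15 counts in shMETTL3, and vector replicate 1 lay under the floor of 3 counts. It passed the filter on low counts only through the shMETTL3 libraries, where it was high, so a difference was built into its entering the test, and its place among the 12 hypoxia rises and among the genes at a log2 fold change of at least 1 is no support for either count. The fitted log2 fold change was 1.85 (SE 0.453, adjusted p = 0.000685), and it ran from 1.42 to 2.47 as each library was left out, so that its size is poorly fixed. Exons of ARHGEF39 on the opposite strand cover 35.7% of the exon bases of CA9, and ARHGEF39 itself fell (-1.69, adjusted p = 6.28e-14). Without a stated strand setting, reads of the pair cannot be told apart. CA12 was abundant in all libraries, from 805 to 856 CPM in vector and 1087 to 1107 CPM in shMETTL3, and rose by 0.40 (SE 0.0483, adjusted p = 4.93e-08).

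The procollagen prolyl hydroxylase subunits P4HA1 and P4HA2, used in collagen folding, did not move together. P4HA2 stood at 42.3, 46.4 and 45.1 CPM in vector and at 70.8, 72.1 and 70.6 CPM in shMETTL3, and rose by 0.67 without overlap (SE 0.0582, adjusted p = 6.78e-11). P4HA1 overlapped between groups and stood at -0.12 (SE 0.0717, adjusted p = 0.138). The P4HA2 to P4HA1 count ratio went from 0.926 to 1.60 (log2 difference 0.79, exact permutation p = 0.1, adjusted 0.138). NDRG1, a stress-induced differentiation gene, rose by 0.39 (adjusted p = 1.27e-06). Of the mitophagy receptors, BNIP3 rose by 0.35 (adjusted p = 0.000225) and BNIP3L by 0.14 (adjusted p = 0.0285). BHLHE40, a transcriptional repressor, was the only target that fell, standing at 292, 278 and 323 CPM in vector and 262, 276 and 261.5 CPM in shMETTL3. Its log2 fold change was -0.16 (SE 0.0544, adjusted p = 0.0123), and with library size alone it was 0.0167. KDM3A, a histone demethylase, stood at 0.0543 (adjusted p = 0.505) and ANKRD37, with a mean of under 1 CPM in each group, at -0.56 (SE 0.379, adjusted p = 0.194).

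Ratios of related genes within a library do not depend on the scaling between libraries, and 18 were computed. In 13 of them the groups did not overlap, each at p = 0.1 in the two-sided exact permutation test and 0.138 after adjustment, so none could pass at this number of libraries. The widest shift was PFKFB3 against PFKFB2, whose count ratio went from 2.76 to 16.4 (log2 difference 2.57). LDHB against LDHA fell from 0.00788 to 0.00500 (-0.66), PFKFB4 against PFKFB3 from 0.0521 to 0.0284 (-0.87), and CA12 against CA9 shifted by -1.52 with the low counts of CA9. PFKM against PFKL stayed at 1.76 in both groups (log2 difference -0.00171, exact permutation p = 1.0, adjusted 1.0).

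**Figure D3:**
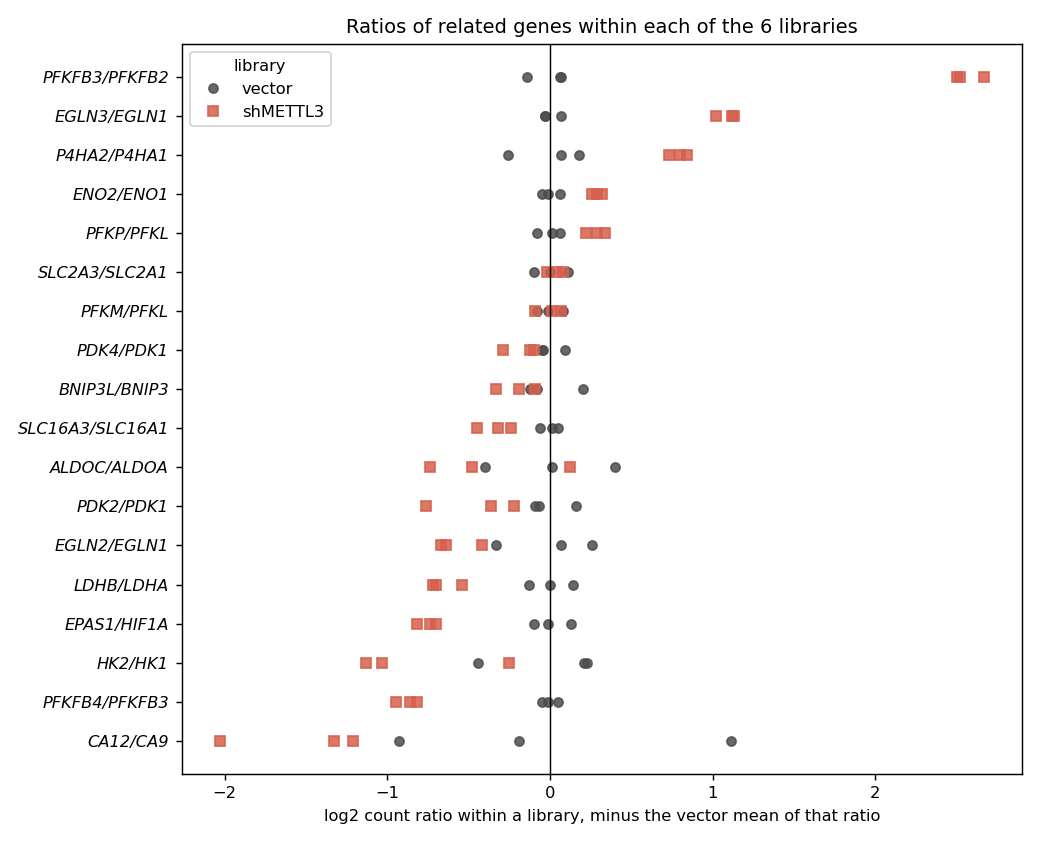
Log2 count ratio of each of 18 pairs of related genes within each library, minus the mean of that ratio over the 3 vector libraries (horizontal axis), with grey circles for vector and red squares for shMETTL3. PFKFB3/PFKFB2 lies farthest to the right, at a mean difference of 2.57, and SLC2A3/SLC2A1 and PFKM/PFKL lie around 0.

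Further genes of the glucose pathway were listed by their roles. Of these 57 genes, 45 were tested and 36 (80.0%) changed, 14 higher and 22 lower, with a median log2 fold change of -0.16. With library size alone the split was 19 higher and 18 lower, so that higher calls went from 38.9% to 51.4% of the changed genes. The 11 tested genes of further carriers and isoenzymes divided into 7 higher and 3 lower, the 24 of connected branches into 5 higher and 14 lower and the 10 of pyruvate entry into 2 higher and 5 lower. Among the carriers, SLC2A6 rose from 1.45, 2.99 and 2.02 CPM to 6.72, 5.53 and 7.49 CPM (log2 fold change 1.61, SE 0.197, adjusted p = 5.13e-08) and SLC2A8 from 3.004, 2.99 and 2.999 CPM to 6.88, 6.23 and 5.79 CPM (1.07, SE 0.154, adjusted p = 7.24e-07), both encoding intracellular GLUT proteins and both opposite to SLC2A1 and SLC2A3. BSG, which encodes the chaperone of the lactate carriers, fell by 0.45. TXNIP, which lowers glucose uptake and is induced by glucose, went from 272, 263 and 261 CPM to 103, 98.5 and 99.7 CPM (-1.40, SE 0.0506, adjusted p = 4.90e-19). Its relative ARRDC4 went from 58.6, 54.2 and 51.97 CPM to 17.3, 16.2 and 17.6 CPM (-1.69, SE 0.0719, adjusted p = 1.72e-17), and neither overlapped between groups. PDK3, a further kinase of pyruvate dehydrogenase, encoded on chromosome X, went from 4.01, 4.48 and 3.98 CPM to 8.69, 7.87 and 6.29 CPM (0.88, SE 0.147, adjusted p = 7.35e-06). Of the pyruvate carrier subunits, MPC2 (-0.74) and MPC1 (-0.31) fell.

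Of 47 further hypoxia genes, 42 were tested and 33 (78.6%) changed, 19 higher and 14 lower, with a median of 0.15. With library size alone the split was 24 higher and 8 lower, so that higher calls went from 57.6% to 75.0% of the changed genes. Among 10 tested genes of the HIF machinery, 5 rose and 4 fell. ARNT, the partner of the HIF-alpha subunits, stood at -0.0133 (adjusted p = 0.841), whereas ARNT2 rose by 2.15 from a mean of 4.89 to 21.7 CPM (adjusted p = 1.74e-15). CITED2, which competes with HIF1A for its coactivators, fell from 99.8, 95.2 and 104 CPM to 37.4, 39.9 and 39.8 CPM (-1.35, SE 0.0581, adjusted p = 2.27e-17), and those coactivators, EP300 (0.20) and CREBBP (0.32), rose. Of the remaining machinery genes, HIF1AN (0.25) and CUL2 (0.55) rose, and RBX1 (-0.42), ELOB (-0.17) and ELOC (-0.16) fell. As single libraries were left out, the calls of EP300, ELOB and ELOC were not always kept (highest adjusted p in edgeR's test 0.0862, 0.0747 and 0.105). Among 32 tested further targets, 14 rose and 10 fell. The rises included LOXL2, a collagen crosslinking enzyme, from 4.90, 5.98 and 7.41 CPM to 97.2, 94.5 and 103.5 CPM (4.02, SE 0.0898, adjusted p = 1.38e-23) and PLIN2, a lipid droplet coat protein, from 8.07, 8.43 and 7.22 CPM to 63.3, 59.9 and 63.3 CPM (2.97, SE 0.0793, adjusted p = 6e-22). The falls included DDIT4, an inhibitor of mTORC1, from 72.8, 75.3 and 75.8 CPM to 47.1, 44.6 and 47.7 CPM (-0.68, SE 0.0570, adjusted p = 3.40e-11), and ZNF395 from 47.6, 49.6 and 50.7 CPM to 28.2, 25.9 and 25.2 CPM (-0.89, SE 0.0669, adjusted p = 3.69e-12). None of these 4 targets and neither CITED2 nor ARNT2 overlapped between groups.

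Every call in both directions was compared across 14 other fits, which changed the scaling, the filter, the tool, the block or the libraries, with CA9 too low to enter 1 of them. Of the 7 rises and 14 falls among the glycolysis genes, 5 and 11 were called in the same direction in every fit, the exceptions being PDK1, PDK4, ALDOC, ENO1 and LDHA. Of the 12 rises and 3 falls among the hypoxia genes, 11 and 2 were called in every fit that tested them, the exceptions being BNIP3L and BHLHE40. CA9 is counted among these 11 though it was not tested, and so not called, under the filter of 10 counts. These calls were lost as follows. ALDOC did not pass without shMETTL3 replicate 1 (log2 fold change -0.353, adjusted p = 0.0876) or with library size alone (-0.40, adjusted p = 0.0554), and LDHA did not pass without shMETTL3 replicate 1 (-0.124, adjusted p = 0.0697) or replicate 2 (-0.12, adjusted p = 0.0792) or with library size alone (0.0389, adjusted p = 0.473). PDK1 did not pass without vector replicate 3 (0.192, adjusted p = 0.17) or shMETTL3 replicate 1 (0.21, adjusted p = 0.182), and PDK4 without vector replicate 3 (0.066) or any of the 3 shMETTL3 libraries (0.111, 0.114 and 0.14). BNIP3L did not pass without vector replicate 2 (0.148) or 3 (0.0884) or shMETTL3 replicate 3 (0.105), and BHLHE40 without shMETTL3 replicate 1 (-0.145) or 3 (-0.146) or with library size alone (0.0167, adjusted p = 0.788). Conversely, ALDOA passed without shMETTL3 replicate 3 (-0.578, adjusted p = 0.00458), and P4HA1 passed without vector replicate 3 (-0.206, adjusted p = 0.00472). With all libraries kept, PDK1 (0.273, adjusted p = 0.0561), PDK4 (0.108, adjusted p = 0.0684) and BNIP3L (0.131, adjusted p = 0.0613) did not pass without the filter, and PDK1 (0.283, adjusted p = 0.0857) and BNIP3L (0.141, adjusted p = 0.055) did not pass with DESeq2. ENO1 did not pass with library size alone (-0.0762, adjusted p = 0.139), whereas ENO2 (0.214, adjusted p = 0.00401), SLC16A3 (0.251, adjusted p = 0.0132) and KDM3A (0.228, adjusted p = 0.00951) passed under that scaling, as did EPAS1. At a log2 fold change of at least 1 in size, 10.2% of all tested genes were higher and 7.42% lower, beside 5 of the 46 genes higher (PFKFB3, HK1, CA9, ANGPTL4 and ADM) and 1 lower (EGLN2).

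**Figure D4:**
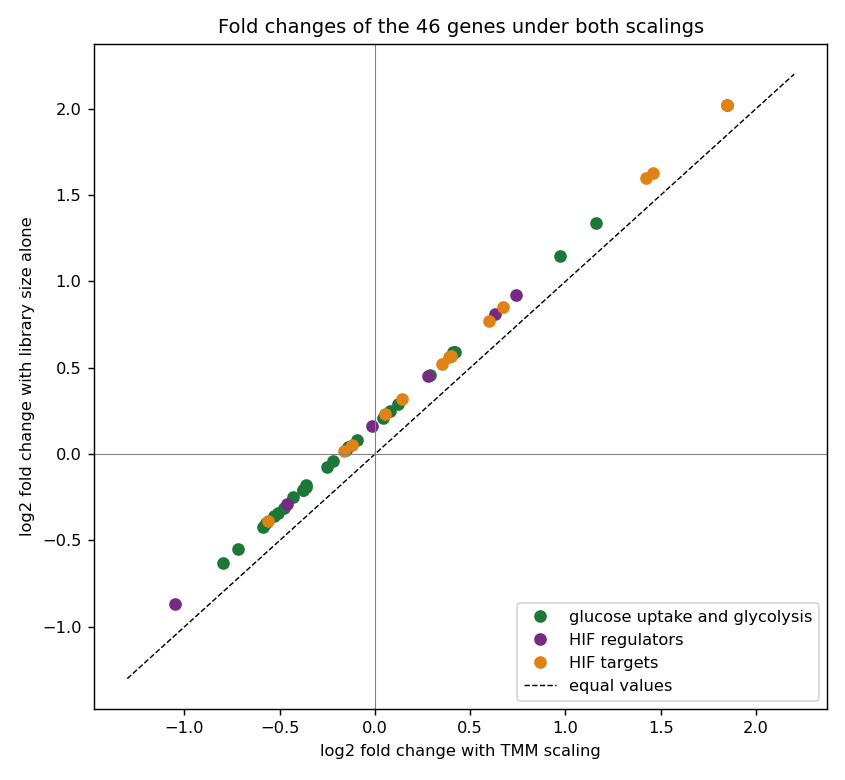
Log2 fold change of the 46 genes with library size alone (vertical axis) against that with TMM scaling (horizontal axis), coloured green for glucose uptake and glycolysis, purple for HIF regulators and orange for HIF targets, with a dashed line of equal values. All points lie above the line, by about the 0.17 that separates the medians of all tested genes.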

How the data were processed

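Whole-number counts per gene, unnormalised, for 57781 rows in 6 libraries were deposited by the authors, who mapped reads to hg19 with HISAT2 and counted them with HTSeq. The submitters' processing notes give cutadapt 3.0, HISAT2 2.2.1, SAMtools 1.13 and HTSeq 0.13.5, and other HISAT2 and HTSeq versions are named in the study's methods. The annotation and the strand setting are not given in the sources used here. Reads in bases shared by overlapping genes, or by near-identical copies, can be lost or split, and the strand of opposite pairs cannot be checked.

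Samples were grouped by their titles. The 46 genes and all lists were chosen with earlier results of these data known. Groups were compared with edgeR 4.0.16 under R 4.3.3 (TMM, filterByExpr, glmQLFit and glmQLFTest, group only) over 15125 genes with Benjamini-Hochberg adjustment. The code was also run on simulated counts in which only a small share of the genes changed, equally often up and down. Its pass criterion was rewritten after a first version failed by a small margin. Since most genes differed here, that simulation does not measure scaling error or false calls in these data. Ratios of 2 genes within a library were computed with 0.5 counts added to each and tested by exact permutation, two-sided. Totals of 14931426 to 19108928 counts gave a floor of 0.149 to 0.189 CPM at 3 counts, which covers counting error only. CPM per kb used exon-union lengths from the GENCODE annotation of GRCh37 (v44 lifted).

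Values in every library were given for METTL3, the 6 HIF regulators, SLC2A1, SLC2A3, HK1, HK2, LDHA, LDHB, and in each group of genes the 6 largest rises and 6 largest falls among changed genes without overlap; among further pathway genes, the 3 largest of each at an average log2 CPM of at least 2. Some listed genes are not reported here by name but stay in the counts and medians, and genes named beyond this rule were chosen after their values were seen. Alternatives were other scalings (RLE, upper quartile, library size alone), other filters (none, or 10 or more counts in all 6 libraries), limma-voom (limma 3.58.1), DESeq2 1.42.0, the replicate number as a block, leaving out single libraries, an adjusted p under 0.01, a log2 fold change of at least 1 in size and 1 count added to the ratios.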

Additional observations from a re-analysis of the deposited data

How the results depend on the processing

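Requiring a log2 fold change of at least 1 in size left 2 of the 21 changed glycolysis genes, 4 of the 15 hypoxia genes, 2668 of the 10067 changed genes among all tested, 8 further glucose genes and 9 further hypoxia genes. With library size alone the median log2 fold change moved to -0.041 for the glycolysis genes and 0.521 for the hypoxia genes, beside the shift of 0.17 over all tested genes, and PFKP (0.0832), LDHA (0.0389), PDK2 (0.0233), P4HA1 (0.0512), BHLHE40 (0.0167) and EPAS1 (0.162) changed sign. EPAS1 also stood above 0 with upper-quartile scaling (0.0103) and with at least 10 counts in every library (0.00486). As each library was left out, the medians ran from -0.269 to -0.124 and from 0.297 to 0.39, and values near 0 changed sign for EPAS1 (-0.0365 to 0.0125), ENO2 (-0.00369 to 0.0718), KDM3A (-0.0264 to 0.0999), the SLC2A3 to SLC2A1 ratio (-0.02 to 0.0835) and the PFKM to PFKL ratio (-0.04 to 0.0412). Beyond what these settings' own construction gives, the cause was not tested. CA9 was not tested under the filter of 10 counts. Same-numbered libraries did not deviate together (correlations 0.0694, -0.0237 and 0.039), so the numbers do not pair them, and not every library correlated best with its own number. With the replicate number as a block, 21 glycolysis genes, 15 hypoxia genes and 10111 tested genes were changed. Other total counts of changed genes stayed within 1.5 times their reported value, while the lower calls among the further hypoxia genes went from 14 to 8 with library size alone.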

Other observations

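The pentose phosphate pathway draws glucose 6-phosphate away from glycolysis to make NADPH and ribose. In edgeR's test, its genes PGLS (-0.41), PGD (-0.56), TKT (-0.41), TALDO1 (-0.41) and RPE (-0.20) fell, whereas RPIA (-0.20, adjusted p = 0.0788) did not pass. TIGAR, a phosphatase that lowers fructose 2,6-bisphosphate, was low but rose by 1.45, from a mean of 0.941 to 2.57 CPM (adjusted p = 1.24e-05). Of the glycogen genes, the synthase GYS1 (-1.04) and the phosphorylases PYGL (-1.45) and PYGB (-0.49) fell, while the branching enzyme GBE1 stood at 0.0339 (adjusted p = 0.591). PYGL stood at 284, 276 and 289 CPM in vector and at 100.1, 106 and 105 CPM in shMETTL3, without overlap (SE 0.0510, adjusted p = 2.84e-19). These genes were in the fixed lists, and their grouping here was chosen after the values were seen.

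ALDOA, the main aldolase of most tissues, was listed at a mean of 8.32 CPM in vector and 7.29 CPM in shMETTL3, or 2.17 and 1.90 CPM per kb, beside 275 and 190.1 CPM per kb for TPI1. Another annotated gene on its strand covers 42.8% of its exon bases, and how reads there were assigned was not given.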
